A study of Mus musculus with 12 samples.

Results

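The protocadherin genes were described here across hippocampi of mice exposed to Gulf War toxicants and of mice given vehicle. They were taken by name, as every gene of the deposited expression table whose symbol begins with Pcdh, pseudogenes left out. This gave 70 of 41743 genes, namely 14 alpha, 22 beta and 22 gamma genes of the clustered family and 12 non-clustered genes. The toxicant group held 6 male C57Bl/6 mice aged 12 weeks that were injected under the skin each weekday for 2 weeks with pyridostigmine bromide (2.5 mg/kg), chlorpyrifos (12.5 mg/kg) and DEET (7.5 mg/kg). Pyridostigmine bromide is a reversible cholinesterase inhibitor, chlorpyrifos an organophosphate insecticide and DEET an insect repellent. The control group held 6 labelled samples from male mice of the same strain and age that received vehicle, whose composition the labels do not give. Whole hippocampi were taken when the exposure ended, and polyadenylated RNA was sequenced as single reads. The samples control 4 and control 5 were identical across all genes and were counted as 1 library (control 4-5), so that 6 toxicant and 5 control libraries were compared.

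Protocadherins are the largest group of the cadherin superfamily, calcium-dependent adhesion proteins of the cell surface. The clustered alpha, beta and gamma genes lie side by side on mouse chromosome 18. Each alpha and gamma transcript joins its own variable exon, which encodes the ectodomain, the membrane span and part of the tail, to constant exons shared by its whole cluster, while each beta gene is a single exon. A neuron chooses a few of the promoters, with CTCF and cohesin looping the chosen ones to distant enhancers, and the resulting set of isoforms binds only to matching sets, by which branches of one neuron recognise and avoid each other. The non-clustered genes are spread over the genome and include the delta protocadherins, which act in axon outgrowth, synapse formation and the removal of adhesion proteins from synapses.

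Values are RPKM, reads per kilobase of gene model, scaled to the depth of the library. Per library, 21.5 M to 34.9 M reads lay behind this scale, and the share of them on annotated genes, the on-gene share, was 76.8% to 83.8% in toxicant libraries and 78.4% to 89.5% in control libraries. The 3 libraries above 84% were control 1 (89.5%), control 3 (88.4%) and control 6 (87.4%), while control 2 (78.4%) and control 4-5 (83.1%) lay within the toxicant range. This share moved with many of the values given below, and its part in them was not tested. Marker genes of hippocampal excitatory neurons summed to 671 to 844 RPKM in toxicant and 739 to 1093 RPKM in control libraries, with all 12 of 12 detected. Markers of the choroid plexus, which lies beside the hippocampus, summed to 27.2 to 1939 RPKM in toxicant and 32.8 to 3044 RPKM in control libraries. In whole tissue, fewer cells of a type and less RNA per cell cannot be told apart.

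Of the 70 genes, 34 reached 0.5 RPKM on average over the 11 libraries and were tested with limma among 13493 genes, on the scale of log2(RPKM + 0.5). Differences are toxicant minus control on that scale, and adjusted p-values are Benjamini-Hochberg over all genes tested. The 34 were 1 alpha, 18 beta, 7 gamma and 8 non-clustered genes. Among the genes tested, levels per kilobase differed widely between the classes. The 8 tested non-clustered genes averaged 4.61 to 37.5 RPKM over all libraries, against at most 3.02 RPKM for any clustered gene. The non-clustered genes under the filter averaged 0.0353 (Pcdh12) to 0.490 RPKM (Pcdh18), within the range of the clustered genes.

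Among the clustered genes, the level stepped down along the array in both groups. The 7 alpha genes Pcdha1 to Pcdha7 averaged 0.148 to 0.627 RPKM over all libraries, while the 7 alpha entries from Pcdha8 onward averaged 0 to 0.133 RPKM. In the gamma cluster, the 7 genes from Pcdhga1 to Pcdhga5, with Pcdhgb1 and Pcdhgb2 among them, averaged 0.614 to 1.84 RPKM. The 15 gamma genes from Pcdhga6 onward averaged 0.0079 to 0.354 RPKM. The neighbours Pcdhga5 and Pcdhga6 show the step. Pcdhga5 averaged 0.944 ± 0.140 RPKM in toxicant and 1.32 ± 0.355 RPKM in control libraries, and Pcdhga6 averaged 0.0506 ± 0.0341 RPKM in toxicant and 0.0499 ± 0.0173 RPKM in control libraries.

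**Figure D1:**
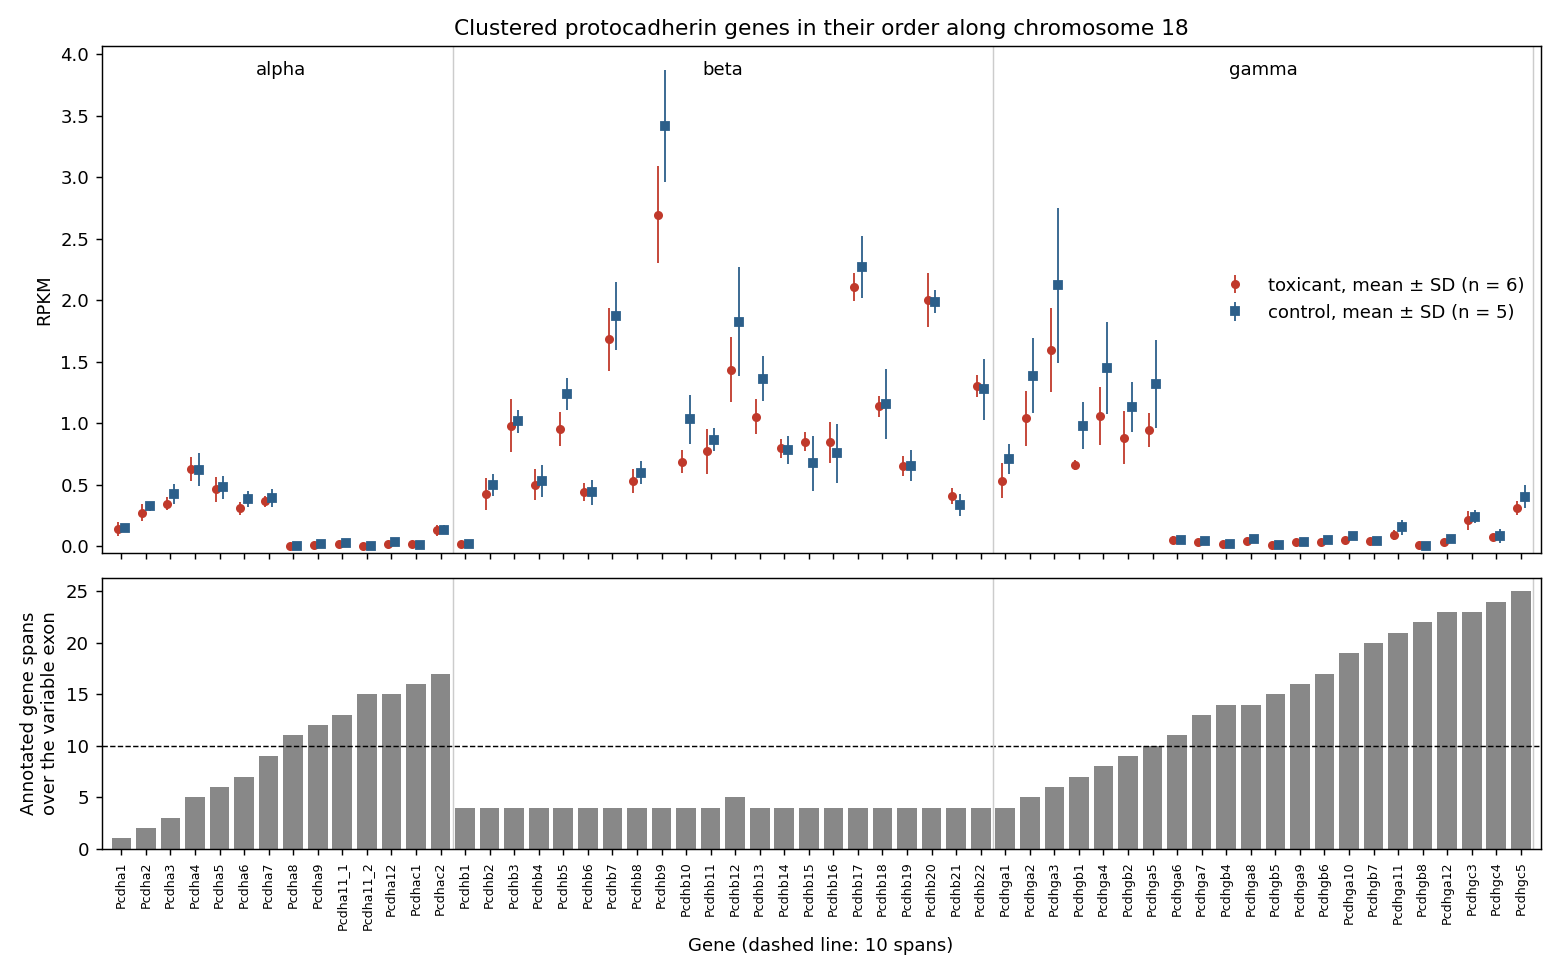
Mean RPKM (upper panel, bars are SD over 6 toxicant and 5 control libraries) of the 58 clustered genes in chromosome order, above the number of annotated genes whose span covers each variable exon (lower panel, dashed line at 10). In the alpha and gamma clusters the level is low to the right of the point where more than 10 spans cover the exon, in both groups, and the beta genes have 4 or 5 spans.

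The step fell at the same annotation count in both clusters. Because an alpha or gamma gene model reaches from its variable exon to the shared constant exons, the variable exon of a later gene lies inside the introns of the earlier ones. In GENCODE M21 (GRCm38), the 7 higher alpha genes had a variable exon covered by 1 to 9 gene spans and the 7 higher gamma genes by 4 to 10, their own span included. The lower alpha entries were covered by 11 to 17 spans and the lower gamma genes by 11 to 25. All 36 clustered genes with at most 10 spans, the 22 beta genes among them, had a median of 0.807 RPKM. The 22 with more than 10, all alpha or gamma genes, had a median of 0.0413 RPKM, none of them past the filter. Within the alpha cluster the medians were 0.379 and 0.0163 RPKM, and within the gamma cluster 1.11 and 0.0476 RPKM. Of the 7 higher alpha genes, only Pcdha4 reached the filter. The limit of 10 was not planned in advance and lies at the step seen in these same values. In the rest of the table, 9 genes had more than 10 spans over every exon, and the highest mean among them was 0.115 RPKM. Low values are common there, since the 41608 other genes with at most 10 spans had a median of 0.0347 RPKM. Of those, 13462 reached the filter. Low levels also occurred under few spans, as for Pcdhb1 with 4 spans and 0.0226 RPKM. The span count rises with position along the alpha and gamma arrays, so span count and position cannot be told apart here. The low values of the later alpha and gamma genes were not read as absence of their RNA, and the part of the span count in them was not tested.

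The C-type isoforms, which neurons express more evenly than the others and which close the alpha and gamma arrays, all lay beyond that step. Pcdhgc5 was at 0.366, 0.219, 0.302, 0.281, 0.340 and 0.361 RPKM in toxicant libraries, against 0.370, 0.274, 0.515, 0.466 and 0.403 RPKM in control libraries, and it was the highest of these isoforms with 37 to 107 reads per library. Pcdhgc3 was at 0.339, 0.263, 0.176, 0.215, 0.135 and 0.141 RPKM in toxicant libraries, against 0.315, 0.172, 0.255, 0.224 and 0.250 RPKM in control libraries. The groups overlapped for both genes. Pcdhgc4 was at 0.0832, 0.113, 0.0577, 0.0397, 0.103 and 0.0693 RPKM in toxicant libraries, against 0.151, 0.0175, 0.115, 0.0428 and 0.103 RPKM in control libraries, on 3 to 24 reads per library. Pcdhac2 was at 0.142, 0.176, 0.0754, 0.0754, 0.168 and 0.150 RPKM in toxicant libraries, against 0.120, 0.0831, 0.157, 0.180 and 0.132 RPKM in control libraries. Pcdhac1 was at 0.0172, 0.00833, 0.0149, 0.0137, 0.0303 and 0.0195 RPKM in toxicant libraries, against 0.0261, 0, 0.00740, 0.0316 and 0.0106 RPKM in control libraries, on 0 to 5 reads. None of the C-type isoforms reached the filter, and the 2 groups overlapped in each of them. Pcdha8 and Pcdha11_2 were listed at 0 in all libraries.

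How much of a clustered transcript can be assigned to its own gene also differed by class. Of the 75-base windows of the gene model, the length of a read, a median of 42.0% were found in no other gene for the alpha genes (9.21% to 52.0%) and 53.7% for the gamma genes (1.57% to 67.1%). The share was 98.8% for the beta genes (37.1% to 100%) and 79.9% to 100% for the non-clustered genes. All reads of a model were also divided by the length of its variable exon alone, without a separate count of reads on that exon. The level over all libraries was then 3.33 RPKM for Pcdhga3, against 1.84 on the whole model. It was 1.25 for Pcdha4, against 0.627 on the whole model. Levels of alpha and gamma genes thus depend on the length they are divided by, while the ratio of RPKM between groups within a gene does not.

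No protocadherin gene differed between the groups at an adjusted p under 0.05 (limma, 0 of 34), and none of the 13493 genes tested did (0.0%). The smallest adjusted p over all genes was 0.0715. The libraries came from different mice, so these p-values measure the spread between animals together with that of library preparation. At an unadjusted p under 0.05, 8 of the 34 genes (23.5%) were lower in the toxicant group, all of them clustered, and 2 (5.88%) were higher, both non-clustered. Over all genes tested the shares were 17.0% lower and 3.33% higher. The median difference was -0.09 over the 34 genes and -0.11 over all genes tested, and 15 of the 34 lay below the median of all genes. None of the 34 genes had all toxicant libraries below or above all control libraries, while 2.03% of all genes tested had every toxicant library below the lowest control and 0.111% every one above the highest.

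**Figure D2:**
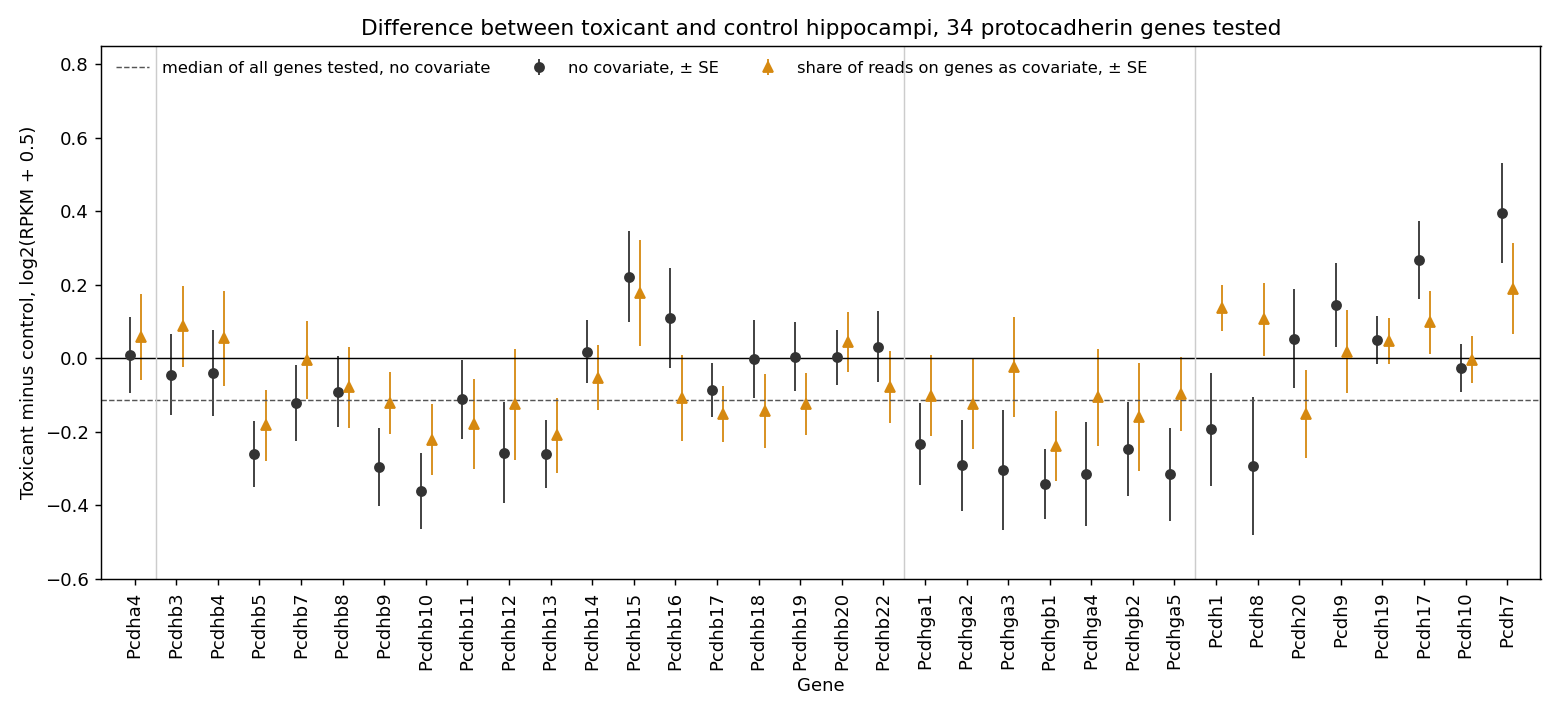
Difference between the toxicant and the control group on the log2(RPKM + 0.5) scale with its SE for each of the 34 genes tested, without a covariate (circles) and with the on-gene share as a covariate (triangles). Grey lines part the alpha gene, the beta, the gamma and the non-clustered genes. All 7 gamma genes lie below 0 in both fits and move toward 0 with the covariate, and Pcdh7 and Pcdh17 lie highest without it. Pcdh1, Pcdh8, Pcdh20, Pcdhb3, Pcdhb4, Pcdhb14, Pcdhb16, Pcdhb19 and Pcdhb22 change sign between the fits.

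All 7 tested gamma genes had a negative difference, here and with median-ratio, quantile, GC or covariate adjustment. In the main fit the differences ran from -0.34 to -0.23 with a median of -0.30, and with the covariate from -0.24 to -0.024. In the main fit, 4 of the 7 (Pcdhgb1, Pcdhga2, Pcdhga4 and Pcdhga5) had an unadjusted p under 0.05 (limma). That count was 1 with each of those 4 adjustments and by the exact rank-sum permutation test, and 1 to 6 with 1 library left out (1 without control 1, control 3 or toxicant 2, 2 without toxicant 4 or toxicant 6, 6 without control 2, control 4-5 or toxicant 1). Of all genes tested, 17.0% were lower in the main fit, 5.14% to 9.13% with those adjustments and 9.69% by the rank-sum test. With 1 library left out, 8.62% to 39.9% were lower. The gamma median was -0.11 with the on-gene share as a covariate, where that of the beta genes was also -0.11 and that of all genes -0.03, and -0.19 with median-ratio scaling. These 7 share the constant exons and lie next to each other, so they are not 7 independent measurements. All gamma genes together took 48.2, 33.9, 41.1, 36.6, 41.1 and 34.6 RPM (reads scaled to depth but not to length) in toxicant libraries 1 to 6, and 64.6, 38.5, 58.4, 45.7 and 56.2 in control libraries 1, 2, 3, 4-5 and 6. The means were 39.2 ± 5.38 in toxicant and 52.7 ± 10.4 in control libraries (SD, n = 6 and 5). The lowest toxicant values lay under all controls, and control 2 and control 4-5 lay within the toxicant range. Scaled to the reads on genes alone, the gamma sums were 48.5 ± 5.77 in toxicant and 61.3 ± 9.19 in control libraries.

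Pcdhgb1 (chromosome 18, 37680233 to 37841870, plus strand) had the smallest p of all protocadherin genes. Pcdhgb1 was at 0.653, 0.734, 0.636, 0.685, 0.619 and 0.647 RPKM in toxicant libraries 1 to 6, against 1.05, 0.694, 1.05, 0.918 and 1.20 RPKM in control libraries 1, 2, 3, 4-5 and 6. Toxicant libraries lay close together, 5 of 6 were below the lowest control, and control 2 alone among the controls lay within their range. The difference was -0.34 ± 0.09 (SE; limma, unadjusted p = 0.00343, adjusted p = 0.197). Fitted with the on-gene share as a covariate it was -0.24 ± 0.10 (unadjusted p = 0.0285). The gene had 81 to 241 reads per library.

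The other gamma genes are given in turn. Pcdhga3 was at 2.04, 1.24, 1.75, 1.54, 1.83 and 1.18 RPKM in toxicant libraries, against 2.87, 1.37, 2.42, 1.57 and 2.38 RPKM in control libraries, which made it the most abundant gamma gene of the table. Its values were highest in controls 1, 3 and 6 and overlapped with the toxicant libraries in controls 2 and 4-5. For Pcdhga3 the difference came to -0.30 ± 0.16 (limma, unadjusted p = 0.0860, adjusted p = 0.269). Its difference with the covariate was -0.024 ± 0.14. Pcdhga4 was at 1.33, 0.802, 1.36, 1.05, 0.939 and 0.888 RPKM in toxicant libraries, against 1.78, 1.09, 1.67, 1.01 and 1.72 RPKM in control libraries, with the same 3 controls highest. This gave a difference of -0.31 ± 0.14 (limma, unadjusted p = 0.0448, adjusted p = 0.243). Pcdhga5 was at 1.22, 0.832, 0.900, 0.881, 0.881 and 0.952 RPKM in toxicant libraries, against 1.48, 0.839, 1.80, 1.25 and 1.23 RPKM in control libraries. Toxicant 1 stood above the other toxicant libraries, and control 2 was the lowest control. Pcdhga5 thus differed by -0.32 ± 0.13 (limma, unadjusted p = 0.0272, adjusted p = 0.225). Pcdhga2 was at 1.30, 0.885, 1.15, 0.836, 1.26 and 0.812 RPKM in toxicant libraries, against 1.91, 1.14, 1.35, 1.24 and 1.29 RPKM in control libraries, and 3 toxicant libraries lay below all controls. The difference was -0.29 ± 0.12 (SE; limma, unadjusted p = 0.0364, adjusted p = 0.234). With the covariate the differences of Pcdhga4, Pcdhga5 and Pcdhga2 were -0.11, -0.10 and -0.12, with unadjusted p of 0.441, 0.361 and 0.327. Pcdhga1 and Pcdhgb2 had differences of -0.23 and -0.25, with unadjusted p of 0.0562 and 0.0765.

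**Figure D3:**
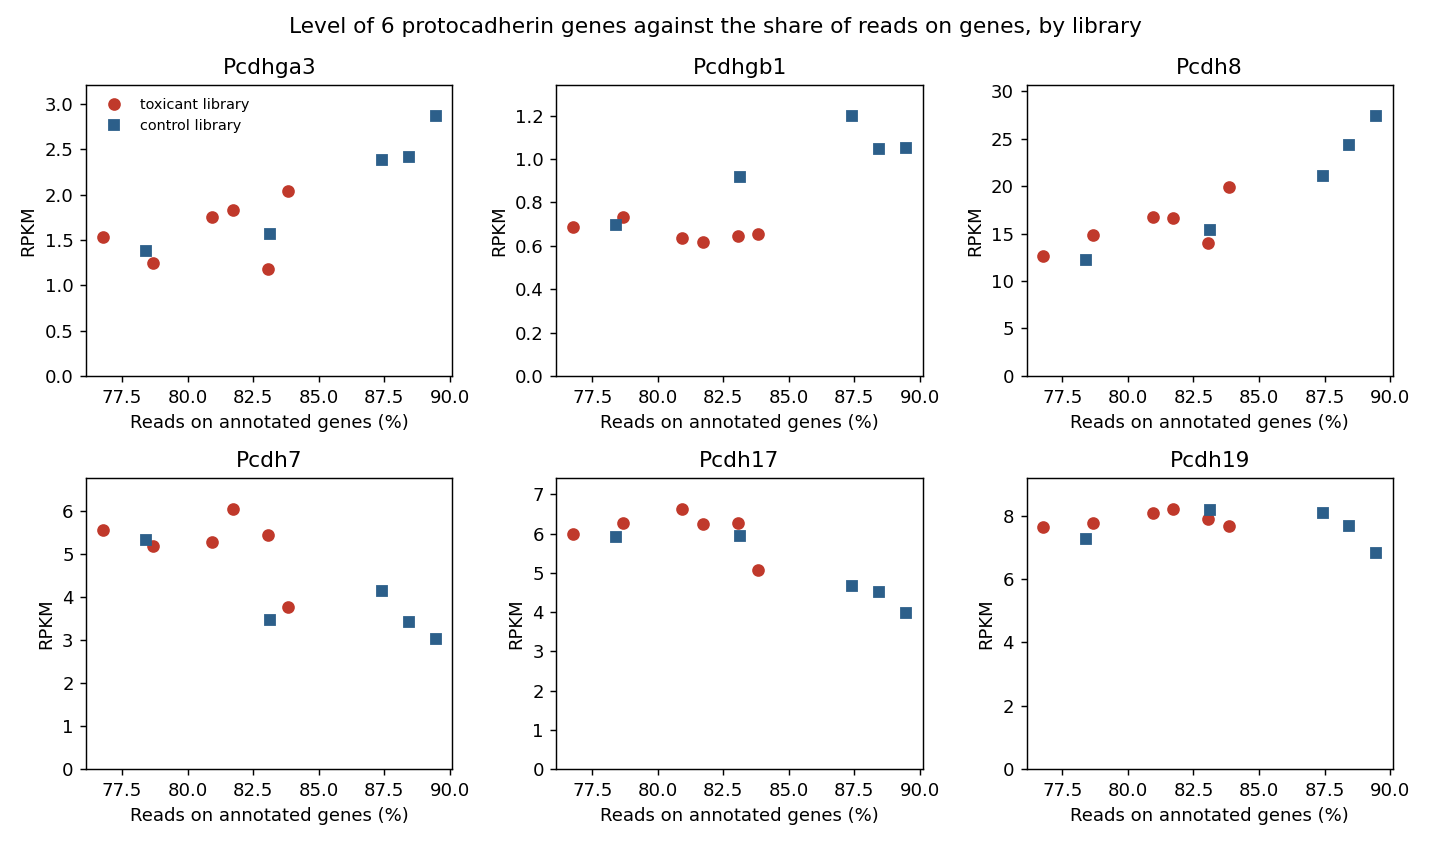
RPKM of 6 protocadherin genes (vertical axes) against the share of reads on annotated genes in percent (horizontal axes), 1 point per library, circles toxicant and squares control. Pcdhga3 and Pcdh8 are higher in libraries with a larger share, Pcdh7 and Pcdh17 lower, Pcdh19 shows no such order, and Pcdhgb1 is level among the 6 toxicant libraries but higher in 4 of the 5 controls.

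Of the 18 beta genes tested, 12 had a negative difference and 6 a positive one, with a median of -0.07 (8 negative and 10 positive, median 0.024, with median-ratio scaling). At an unadjusted p under 0.05, 4 of the 18 (22.2%) were lower, where 17.0% of all genes were lower. All 4 lay in the first part of the array. Of Pcdhb1 to Pcdhb13, 10 of 10 genes tested had a negative difference (8 of 10 with median-ratio scaling or the covariate), with a median of -0.19. Of Pcdhb14 to Pcdhb22, 2 of 8 had a negative and 6 a positive difference (5 and 3 with the GC correction, 6 and 2 with the covariate), with a median of 0.01. The array was divided there after the values were seen, and the difference between the 2 stretches was not tested. Medians with the covariate were -0.12 for the first stretch and -0.09 for the second. Without it, 6 of the 10 genes of the first stretch and 0 of the 8 of the second lay below the median of all genes, -0.11. Beta sums were 93.2 ± 5.45 RPM in toxicant and 100.6 ± 4.07 in control libraries.

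Pcdhb10 (chromosome 18, 37411664 to 37414514, plus strand) had the lowest difference of all protocadherin genes. Pcdhb10 was at 0.882, 0.649, 0.637, 0.662, 0.634 and 0.668 RPKM in toxicant libraries, against 1.19, 0.698, 1.08, 1.16 and 1.04 RPKM in control libraries. Toxicant libraries 2 to 6 lay below every control, toxicant 1 stood above the other toxicant libraries, and control 2 was far below the other controls. For Pcdhb10 the difference came to -0.36 ± 0.10 (limma, unadjusted p = 0.00422, adjusted p = 0.201). With the covariate it was -0.22 ± 0.10 (unadjusted p = 0.0424). The values rest on a mean of 65.7 reads per library. Beside Pcdhgb1, it was the only protocadherin gene lower at an unadjusted p under 0.05 in that fit, in which 9.13% of all genes were lower and 4.34% higher.

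Pcdhb9 (chromosome 18, 37400855 to 37403909) had the highest mean RPKM of the clustered genes on the whole gene model, 3.02. All reads of the Pcdhga3 model gave 3.33 when divided by the length of its variable exon alone. Reads on that exon were not counted separately. Pcdhb9 was at 2.84, 2.29, 3.22, 2.19, 2.93 and 2.69 RPKM in toxicant libraries, against 3.90, 2.71, 3.37, 3.38 and 3.73 RPKM in control libraries. Here 3 of the 6 toxicant libraries lay below all controls, and control 2 was the lowest control. This gave a difference of -0.30 ± 0.11 (limma, unadjusted p = 0.0150, adjusted p = 0.219). Pcdhb13 was at 1.00, 1.01, 1.27, 0.957, 1.17 and 0.903 RPKM in toxicant libraries, against 1.33, 1.11, 1.30, 1.52 and 1.55 RPKM in control libraries, and 4 of 6 toxicant libraries lay below all controls. Pcdhb13 thus differed by -0.26 ± 0.09 (limma, unadjusted p = 0.0144, adjusted p = 0.219). Pcdhb5 was at 1.11, 0.715, 0.913, 0.921, 1.01 and 1.06 RPKM in toxicant libraries, against 1.19, 1.24, 1.32, 1.05 and 1.40 RPKM in control libraries, again with 4 of 6 toxicant libraries below all controls. The difference was -0.26 ± 0.09 (SE; limma, unadjusted p = 0.0136, adjusted p = 0.217). With the covariate, the differences of Pcdhb9, Pcdhb13 and Pcdhb5 were -0.12, -0.21 and -0.18, none at an unadjusted p under 0.05. Pcdhb17 was at 2.22, 2.14, 2.17, 1.92, 2.16 and 2.01 RPKM in toxicant libraries, against 2.06, 2.59, 2.18, 2.49 and 2.04 RPKM in control libraries, which made it the beta gene with the next highest RPKM. For Pcdhb17 the difference came to -0.09 ± 0.07 (limma, unadjusted p = 0.267, adjusted p = 0.425). The values of the 2 groups overlapped in each of these beta genes.

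The remaining beta genes tested had means over all libraries within the range of the class, 0.514 to 3.02 RPKM. Pcdhb15 had the highest difference among them, 0.22 ± 0.12, with 0.852 ± 0.0801 RPKM in toxicant and 0.675 ± 0.225 RPKM in control libraries (limma, unadjusted p = 0.0930). Pcdhb12 was at 1.44 ± 0.265 RPKM in toxicant and 1.83 ± 0.443 RPKM in control libraries (difference -0.26, unadjusted p = 0.0843), and 37.1% of its windows were its own. Pcdhb1, Pcdhb2, Pcdhb6 and Pcdhb21 did not reach the filter. Pcdhb2 was at 0.428 ± 0.128 RPKM in toxicant and 0.4999 ± 0.0878 RPKM in control libraries, and Pcdhb6 at 0.446 ± 0.0729 RPKM in toxicant and 0.441 ± 0.101 RPKM in control libraries. Pcdhb21 was at 0.410 ± 0.0660 RPKM in toxicant and 0.336 ± 0.0906 RPKM in control libraries, and Pcdhb1 at 0.0233 ± 0.0195 RPKM in toxicant and 0.0217 ± 0.0195 RPKM in control libraries.

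A single alpha gene, Pcdha4, reached the filter. Pcdha4 was at 0.783, 0.548, 0.672, 0.667, 0.506 and 0.599 RPKM in toxicant libraries, against 0.484, 0.509, 0.667, 0.640 and 0.821 RPKM in control libraries, and the toxicant values lay inside the control range. This gave a difference of 0.01 ± 0.10 (limma, unadjusted p = 0.924, adjusted p = 0.948). Only 9.21% of its windows belonged to no other gene. Its neighbour Pcdha5, with 0.463 ± 0.0998 RPKM in toxicant and 0.480 ± 0.0952 RPKM in control libraries, fell just short of the filter. All alpha genes together took 14.9 ± 1.39 RPM in toxicant and 16.5 ± 1.72 in control libraries, and control 2, at 13.5, stood below the other controls, at 16.6 to 17.8.

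The non-clustered genes are given by subfamily, first the delta-1 genes Pcdh1, Pcdh7, Pcdh9 and Pcdh11x. The promoters of the non-clustered genes Pcdh7 and Pcdh17, which were higher at an unadjusted p under 0.05, and of Pcdh8, which had the lowest difference among the non-clustered genes, are shown from RefSeq on GRCm38.p6, 250 bases before to 50 bases after the annotated start, on the strand of the gene. Capitals mark a TATA box (the letters TATAAA), the CCAAT box or a GC box (the letters GGGCGG), each searched on both strands, so that ATTGG and CCGCCC are matches on the other strand.
Pcdh7, chr5:57717831-57718130, plus strand: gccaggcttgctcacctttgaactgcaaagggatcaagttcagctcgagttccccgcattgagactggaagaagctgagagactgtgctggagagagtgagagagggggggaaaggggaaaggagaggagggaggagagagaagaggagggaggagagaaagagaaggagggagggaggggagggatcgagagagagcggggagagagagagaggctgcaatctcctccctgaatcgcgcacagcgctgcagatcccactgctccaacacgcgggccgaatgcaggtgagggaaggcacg
Pcdh17, chr14:84443313-84443612, plus strand: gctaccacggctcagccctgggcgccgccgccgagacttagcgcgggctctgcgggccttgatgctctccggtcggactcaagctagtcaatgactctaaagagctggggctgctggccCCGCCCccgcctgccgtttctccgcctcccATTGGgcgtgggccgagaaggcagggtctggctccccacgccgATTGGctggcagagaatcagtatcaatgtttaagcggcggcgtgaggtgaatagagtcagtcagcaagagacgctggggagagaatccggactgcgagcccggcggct
Pcdh8, chr14:79771263-79771562, minus strand: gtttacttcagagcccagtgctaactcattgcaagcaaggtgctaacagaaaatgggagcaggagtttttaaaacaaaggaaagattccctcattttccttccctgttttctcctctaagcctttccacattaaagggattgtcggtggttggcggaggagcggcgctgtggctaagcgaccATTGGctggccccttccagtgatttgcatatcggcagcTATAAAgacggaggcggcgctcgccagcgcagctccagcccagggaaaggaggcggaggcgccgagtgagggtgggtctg
The Pcdh7 window held none of the 3 motifs, that of Pcdh17 held a GC box and 2 CCAAT boxes, and that of Pcdh8 held a TATA box and a CCAAT box. Over 32851 promoters of the same length, 13.6% held the TATA box, 37.4% the CCAAT box and 35.7% the GC box. Of the 9 non-clustered genes with an entry, 2 held a TATA box, 8 a CCAAT box and 4 a GC box. None held the cAMP response element TGACGTCA, which 1.79% of all promoters held.

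Pcdh7 (chromosome 5, 57717967 to 58133230, plus strand), an adhesion protein that was first found in brain and heart, had the largest positive difference of the 34 genes. Pcdh7 was at 3.78, 5.20, 5.29, 5.57, 6.04 and 5.44 RPKM in toxicant libraries, against 3.03, 5.33, 3.43, 3.48 and 4.15 RPKM in control libraries. Of 6 toxicant libraries, 3 lay above the highest control, which was control 2, and toxicant 1 was the lowest of its group. Pcdh7 thus differed by 0.40 ± 0.14 (limma, unadjusted p = 0.0123, adjusted p = 0.216). With the covariate it was 0.19 ± 0.12 (unadjusted p = 0.151). Pcdh1 was at 40.3, 29.9, 36.7, 31.1, 35.9 and 35.2 RPKM in toxicant libraries, against 51.4, 26.7, 45.9, 34.5 and 45.2 RPKM in control libraries, so that this gene, known from epithelia as well as brain, was the most abundant protocadherin. Controls 1, 3 and 6 lay above every toxicant library, and control 2 below every one of them. The difference was -0.19 ± 0.15 (SE; limma, unadjusted p = 0.231, adjusted p = 0.392). With the covariate the sign changed, to 0.14 ± 0.06 (unadjusted p = 0.0486). Pcdh9 was at 10.2, 10.9, 11.9, 9.86, 12.4 and 11.6 RPKM in toxicant libraries, against 7.43, 12.3, 9.46, 10.9 and 10.5 RPKM in control libraries, with control 2 among the highest values and control 1 the lowest. For Pcdh9 the difference came to 0.15 ± 0.11 (limma, unadjusted p = 0.223, adjusted p = 0.385). Pcdh11x, the X-linked member, was at 0.519 ± 0.0606 RPKM in toxicant and 0.435 ± 0.0862 RPKM in control libraries and did not reach the filter.

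**Figure D4:**
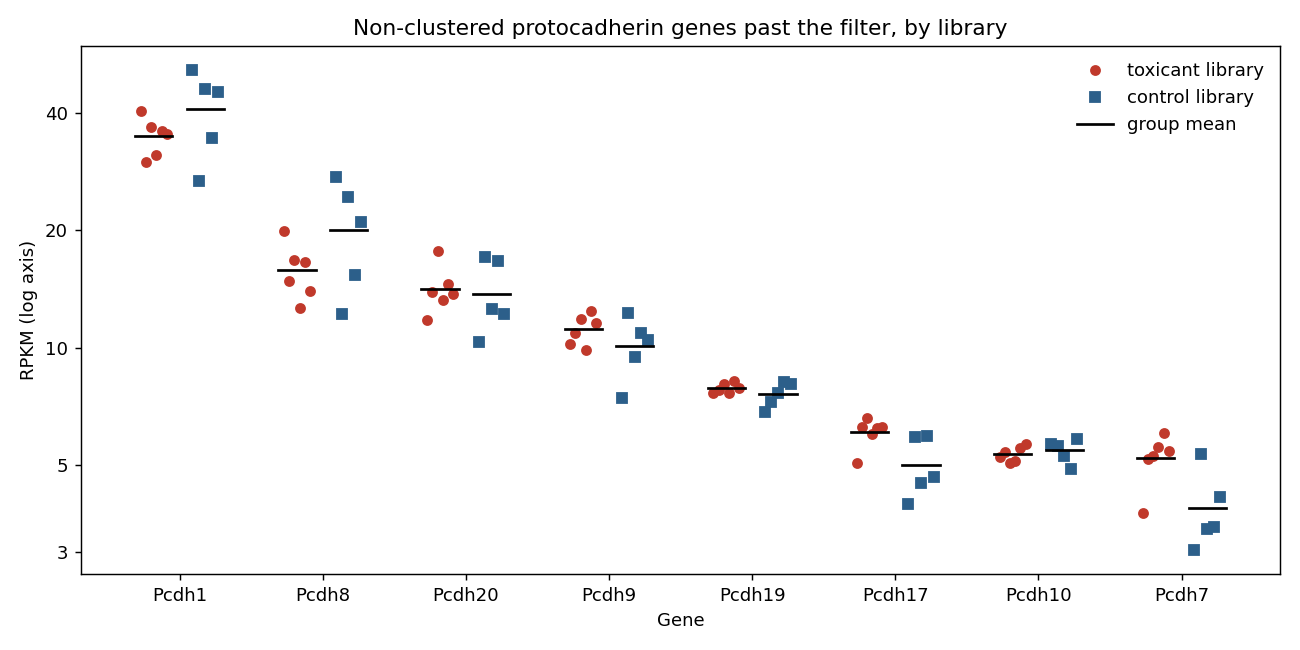
RPKM (log axis) of the 8 non-clustered genes past the filter in each library, toxicant (circles, n = 6) left of control (squares, n = 5), with the group mean as a line. Pcdh7 and Pcdh17 have most toxicant libraries above most controls, Pcdh1 and Pcdh8 have 3 controls above the toxicant libraries, and no gene has groups that do not overlap.

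Of the delta-2 genes, Pcdh17 (chromosome 14, 84443563 to 84539002, plus strand), which clusters synaptic vesicles at developing synapses of the mouse basal ganglia, was the other gene higher at an unadjusted p under 0.05. Pcdh17 was at 5.07, 6.27, 6.62, 6.00, 6.23 and 6.27 RPKM in toxicant libraries, against 3.97, 5.92, 4.51, 5.95 and 4.67 RPKM in control libraries. Here 5 of 6 toxicant libraries lay above every control, though by little over controls 2 and 4-5, and toxicant 1 was the lowest of its group. This gave a difference of 0.27 ± 0.11 (limma, unadjusted p = 0.0257, adjusted p = 0.223). With the covariate it was 0.10 ± 0.09 (unadjusted p = 0.280). Pcdh8 (chromosome 14, 79766775 to 79771312, minus strand), also called arcadlin, is induced by synaptic activity in rat hippocampus and drives the internalisation of N-cadherin. Pcdh8 was at 19.9, 14.8, 16.8, 12.7, 16.6 and 13.98 RPKM in toxicant libraries, against 27.4, 12.2, 24.3, 15.4 and 21 RPKM in control libraries. Controls 1, 3 and 6 lay above all toxicant libraries and control 2 below them. Pcdh8 thus differed by -0.29 ± 0.19 (limma, unadjusted p = 0.146, adjusted p = 0.318). Its sign changed with the covariate, to 0.11 ± 0.10 (unadjusted p = 0.313).

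Pcdh19 and Pcdh10 had the smallest standard errors of the class. Pcdh19 was at 7.66, 7.78, 8.09, 7.65, 8.20 and 7.88 RPKM in toxicant libraries, against 6.84, 7.28, 7.67, 8.17 and 8.08 RPKM in control libraries. This X-linked gene, mutated in a human epilepsy of girls, had toxicant values within a narrower range than its controls. The difference was 0.05 ± 0.06 (SE; limma, unadjusted p = 0.455, adjusted p = 0.586). Pcdh10 was at 5.24, 5.42, 5.06, 5.13, 5.53 and 5.68 RPKM in toxicant libraries, against 5.66, 5.62, 5.28, 4.90 and 5.83 RPKM in control libraries. For Pcdh10, which takes part in activity-dependent synapse elimination in mouse neurons, the toxicant values lay inside the control range. For Pcdh10 the difference came to -0.03 ± 0.06 (limma, unadjusted p = 0.687, adjusted p = 0.773). Pcdh18, the last delta-2 gene, was at 0.497 ± 0.0884 RPKM in toxicant and 0.483 ± 0.0448 RPKM in control libraries, just under the filter.

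Outside the delta genes, Pcdh20 was the only one past the filter. Pcdh20 was at 11.8, 13.9, 17.6, 13.3, 14.5 and 13.7 RPKM in toxicant libraries, against 10.3, 17.1, 12.5, 16.6 and 12.2 RPKM in control libraries. Toxicant 3 was the highest of all libraries, and among controls 2 and 4-5 stood above 1, 3 and 6. This gave a difference of 0.05 ± 0.14 (limma, unadjusted p = 0.700, adjusted p = 0.783). With the covariate it was -0.15 ± 0.12. Pcdh15, which forms the tip links of hair cells together with cadherin 23, was at 0.524 ± 0.161 RPKM in toxicant and 0.318 ± 0.212 RPKM in control libraries, with control 2 at 0.680 RPKM above 5 of 6 toxicant libraries. Pcdh12, known from endothelium, was at 0.0322 ± 0.0193 RPKM in toxicant and 0.0389 ± 0.00935 RPKM in control libraries. Both were under the filter. Together the non-clustered genes took 856 ± 44.3 RPM in toxicant and 883 ± 66.3 in control libraries.

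Most of these calls depended on which libraries entered the fit. In the 8 libraries with at most 84% of reads on genes (6 toxicant libraries, control 2 and control 4-5), 2 protocadherin genes, Pcdhb17 and Pcdhb18, were lower at an unadjusted p under 0.05 and none was higher, against 6.04% and 3.16% of all genes. In those libraries the gamma median was -0.09 and that of all genes -0.04. Leaving out control 2 alone raised the number of calls. Then 9 protocadherin genes were lower and 2 higher at an adjusted p under 0.05 (limma), against 28.0% and 8.56% of all genes. The 9 were Pcdhgb1, Pcdhb10, Pcdhb9, Pcdhb13, Pcdhga5, Pcdhga3, Pcdhb12, Pcdh8 and Pcdh1, and the 2 were Pcdh7 (0.50, adjusted p = 0.0230) and Pcdh17 (0.33, adjusted p = 0.0327). With median-ratio scaling, under which the median of all genes was 0.00 in place of -0.11, the split was 3 lower and 4 higher protocadherin genes, and 694 lower and 1105 higher of all genes.

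Among the proteins of promoter choice (CTCF, cohesin and its loaders, and silencing factors), 22 of 23 genes were tested, of which 1 was lower and 3 higher at an unadjusted p under 0.05, where 17.0% of all genes were lower and 3.33% higher. Their median was -0.019 (0.098 with median-ratio scaling, 0.040 with quantile normalization, 0.073 with the GC correction, -0.048 with the covariate). That of all genes was -0.11 (0.0014, -0.038, -0.019 and -0.034 in the same order). Ctcf, which binds the clustered promoters and their enhancers, was at 11.3 ± 0.503 RPKM in toxicant and 11.5 ± 0.589 RPKM in control libraries (difference -0.02 ± 0.06). Rad21, a cohesin subunit, was at 17.97 ± 1.19 RPKM in toxicant and 19.3 ± 1.52 RPKM in control libraries (difference -0.10 ± 0.08). The 3 higher genes were the cohesin subunits Smc3 (0.57 ± 0.21) and Stag2 (0.42 ± 0.19) and the cohesin loader Nipbl (0.61 ± 0.25), and the lower one was Mau2 (-0.19 ± 0.07), the partner of Nipbl in loading. None had an adjusted p under 0.05 (0.219 to 0.241). Fitted with the covariate, Smc3, Stag2 and Nipbl differed by 0.18, 0.043 and 0.093.

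Of 29 intracellular partners, which include kinases bound by protocadherin tails, the WAVE complex and the gamma-secretase that cuts the tails, 11 were lower and 1 higher at an unadjusted p under 0.05, where 17.0% of all genes were lower and 3.33% higher, and the median was -0.18, against -0.11 over all genes. Ptk2b, the kinase Pyk2 that alpha and gamma tails bind and inhibit, was at 81.6 ± 8.77 RPKM in toxicant and 109 ± 22.7 RPKM in control libraries (difference -0.40 ± 0.14, adjusted p = 0.217, limma). Aph1a, a gamma-secretase subunit, had a difference of -0.30 ± 0.10, and the WAVE complex members Cyfip2 and Wasf3 ones of -0.31 ± 0.10 and -0.22 ± 0.07. Ptk2, the related focal adhesion kinase, was at 5.81 ± 0.335 RPKM in toxicant and 5.55 ± 0.661 RPKM in control libraries (difference 0.07 ± 0.08). Fyn, a kinase reported to bind alpha protocadherin tails, had a difference of -0.19 ± 0.10. The list's median with the covariate was -0.036.

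Other members of the cadherin superfamily numbered 26 tested of 34, with 4 lower and 2 higher at an unadjusted p under 0.05 (limma). Of all genes, 17.0% were lower and 3.33% higher. The median of the 26 was -0.11 (0.015 with median-ratio scaling, 0.00060 with quantile normalization, 0.0093 with the GC correction, -0.063 with the covariate). That of all genes was -0.11 (0.0014, -0.038, -0.019 and -0.034 in the same order). Cdh5, the cadherin of endothelial junctions, had the smallest p among the 26, with 1.71 ± 0.10 RPKM in toxicant and 2.30 ± 0.235 RPKM in control libraries (difference -0.34 ± 0.07, adjusted p = 0.156, limma). The planar-polarity cadherin Fat4 had a difference of -0.26 ± 0.08, while Cdh19 and Cdh12 had ones of 0.60 ± 0.24 and 0.44 ± 0.19. Cdh2 (N-cadherin) was at 12.1 ± 0.640 RPKM in toxicant and 13.2 ± 0.708 RPKM in control libraries, and Celsr3, an atypical cadherin needed for axon tracts, was at 8.16 ± 1.64 RPKM in toxicant and 7.94 ± 1.40 RPKM in control libraries. Of 8 catenins tested, which link classical cadherins but not protocadherins to actin, all 8 had a negative difference (5 to 7 of 8 under the other scalings and the covariate) and 5 had an unadjusted p under 0.05, where 17.0% of all genes were lower. Their median was -0.18, against -0.11 over all genes (-0.07 and -0.03 with the covariate). Of the 8 catenins, 6 lay below the median of all genes. The first 4 by p were Ctnnd1 (-0.22 ± 0.06), Jup (-0.33 ± 0.13), Ctnna1 (-0.25 ± 0.10) and Pkp4 (-0.20 ± 0.08).

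Cell type marker lists are given beside these values and beside the median of -0.11 over all genes tested, with counts of negative differences, and no list was tested. No marker gene passed the adjusted threshold (limma). The median difference was -0.20 over 12 markers of excitatory neurons (11 of 12 negative), -0.10 over 10 of interneurons (8 negative), -0.50 over 10 of oligodendrocytes (8 negative) and -0.13 over 7 of their precursors (6 negative). It was -0.14 over 9 of astrocytes (7 negative), -0.25 over 8 of microglia (8 negative), -0.27 over 8 of endothelium (7 negative), -0.57 over 8 of choroid plexus (8 negative), -0.18 over 7 of meninges (6 negative) and -0.13 over 9 of adjoining tissue such as thalamus (6 negative). Fewer lay below the median of all genes in most lists. These were 9 excitatory, 4 interneuron, 8 oligodendrocyte, 4 precursor, 6 astrocyte and 7 microglia markers. For endothelium, choroid plexus, meninges and adjoining tissue they were 7, 8, 5 and 5. The interneuron median was above 0 with each other scaling (0.013 to 0.020) and with the covariate (0.12), and that of the precursors with the GC correction (0.013). Oligodendrocyte markers summed to 477 to 659 RPKM in toxicant and 685 to 770 RPKM in control libraries, and endothelial markers to 24.9 to 29.8 RPKM in toxicant and 30.02 to 35.3 RPKM in control libraries, and these were the 2 lists whose sums did not overlap. No marker gene was at 0 in all libraries, and the part of cell composition in the protocadherin values was not tested.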

How the data were processed

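RNA of whole hippocampi was sequenced from 6 toxicant and 6 control samples. The authors deposited 1 RPKM value per gene and library, 41743 genes in 12 columns, per the file headers. Aligner, counting program, build and annotation were not given in the sources used here. Control 4 and control 5 were identical and counted once. Multiplied by exon lengths of GENCODE M21 (GRCm38, 41675 gene IDs found), 98.5% to 98.7% of the values checked in a library (those under 200 reads) were whole within 0.05 reads. This gave reads per gene and the depth.

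Values were tested as log2(RPKM + 0.5), which understates changes of low genes, for the 13493 genes that averaged 0.5 RPKM or more, with limma 3.58.1 in R 4.3.3 (eBayes with trend, two-sided, Benjamini-Hochberg adjustment, threshold 0.05), tested on simulated data. Python 3.11.15 made the summaries. Spans and windows were counted in GENCODE M21, and promoters are RefSeq's (GRCm38.p6). Strandedness of the counting is not stated, so antisense genes may share reads. Named were every non-clustered gene past the filter, the 2 most abundant genes and the 2 with the smallest p of each clustered class, genes with an unadjusted p under 0.05, the C-type isoforms, and at most 4 genes per pathway list by p plus Ctcf, Rad21, Ptk2b, Ptk2, Fyn, Celsr3 and Cdh2. Other genes named were chosen after their values were seen. A further gene of the pathway lists is not reported here. The members and lists were chosen with earlier results of these data known. Alternatives were other pseudocounts, filters, scalings, variance models, a GC correction, the on-gene share as covariate, a replicate block, each library left out, voom on the recovered reads and a rank-sum test. No list or score was tested.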

Additional observations from a re-analysis of the deposited data

Results flagged for a closer look

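Over 76 groups of libraries (2 groups for each tested gene and each class sum), 7 held a library whose gap to its nearest neighbour was large beside the range of its group (Dixon's criterion). Chance flags about 1 group in 20. Toxicant 1 stood apart in 4 of the 7. It was at 3.78 RPKM for Pcdh7, against 5.20 to 6.04 RPKM in the other toxicant libraries. It was at 0.882 RPKM for Pcdhb10, against 0.634 to 0.668 RPKM, at 0.722 RPKM for Pcdhb8, against 0.467 to 0.555 RPKM, and at 1.22 RPKM for Pcdhga5, against 0.832 to 0.952 RPKM. In all 4 it was shifted from the other toxicant libraries in the direction of the control mean. For Pcdhb8 it lay above every control (0.437 to 0.687 RPKM). It had 83.8% of its reads on genes, the largest share of the toxicant libraries, and the part of that share was not tested.

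Toxicant 5 was at 0.752 RPKM for Pcdhb4, against 0.417 to 0.488 RPKM in the other toxicant libraries. Control 1 was at 1.91 RPKM for Pcdhga2, against 1.14 to 1.35 RPKM in the other controls. Control 2 had 13.5 RPM on the alpha genes together, against 16.6 to 17.8 in the other controls.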

How the results depend on the processing

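The count of all genes past an adjusted p of 0.05, 0 as reported, was 1 with a pseudocount of 0.1, 9 with the 12 columns as deposited, 5 in the libraries with at most 84% of reads on genes, 11 at a threshold of 0.1 and 0 to 4929 with 1 library left out, the highest without control 2. The 8 lower protocadherin genes became 3 with median-ratio scaling, 5 with quantile normalization, 2 with the on-gene share as covariate, 3 with that covariate and control 2 left out, 4 with a GC correction, 2 in the libraries with at most 84%, 5 by the exact rank-sum permutation test and 5 to 13 with 1 library left out. In that order, the share of all genes lower went from 17.0% to 5.14%, 8.69%, 9.13%, 5.34%, 8.27%, 6.04%, 9.69% and 8.62% to 39.9%. The 2 higher protocadherin genes became 4, 4, 1, 1, 0 and 1 with median-ratio scaling, the GC correction, the covariate, the covariate without control 2, the libraries with at most 84% and the rank-sum test, and 1 to 3 with 1 library left out. The share of all genes higher went from 3.33% to 8.19%, 6.31%, 4.34%, 1.35%, 3.16%, 0.904% and 1.07% to 12.9%. The clustered median of -0.12 was -0.042 without a filter, -0.26 with a filter at 1 RPKM, -0.026 with median-ratio scaling, -0.19 with voom, -0.049 with the covariate and control 2 left out and -0.16 to -0.083 with 1 library left out. The non-clustered median of 0.05 was 0.18 with median-ratio scaling, 0.14 with quantile normalization, -0.0045 with the GC correction and 0.00026 to 0.10 with 1 library left out. Signs turned in 27 of 510 single values, and 10 of 19 named genes kept theirs throughout. With the covariate, Pcdh8 was 0.11, Pcdh1 0.14 and Pcdh20 -0.15, and with control 2 also left out Pcdh8 was 0.078, Pcdh1 0.072, Pcdh20 -0.14, Pcdh10 0.085, Pcdh19 -0.022 and Pcdha4 -0.030. In the libraries with at most 84%, Pcdh8 was 0.18, Pcdh1 0.19, Pcdh20 -0.25, Pcdh10 0.023, Pcdh9 -0.060 and Pcdhga3 0.076. Median-ratio scaling gave Pcdh10 0.095 and Pcdhb17 0.021, quantile normalization Pcdh10 0.040 and Pcdha4 -0.020, and the GC correction Pcdh20 -0.083. With 1 library left out Pcdh20 ranged from -0.039 to 0.13 and Pcdha4 from -0.036 to 0.070. The cause of these moves was not tested. The labels give no pairing, and the replicate numbers were not taken as pairs. The residuals of same-numbered libraries correlated at 0.62, 0.28, -0.30, 0.32 and 0.27. These correlations were not set against those of differently numbered libraries, so they cannot decide on a pairing. With the replicate block, 11 protocadherin genes were lower and 2 higher, where 26.7% of all genes were lower and 7.89% higher, and 0 genes passed the adjusted threshold. Control 4-5 counted as replicate 4 in that fit, so toxicant 5 stood alone in its block and had no weight in the differences. The covariate without control 2 and the split at 84% were chosen after seeing the data, and the limit of 10 spans was not planned in advance. Limits are the few reads behind clustered genes, constant exons shared between isoforms, and an on-gene share that differs between the groups.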
